A study of Homo sapiens with 2 samples.

Results

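The angiopoietin and TIE receptor genes form a signalling unit of blood vessels, and 5 of them were followed here: the ligand genes ANGPT1 and ANGPT2, the receptor genes TEK (also called TIE2) and TIE1, and the phosphatase gene PTPRB (also called VE-PTP). They were picked by NCBI gene number (284, 285, 7010, 7075 and 5787) out of 18518 gene numbers in the deposited tables, and all 5 were listed in both tables. RNA sequencing had been done on 1 library of H1 cells with the genotype MEIS1-/- and on 1 library of wild-type H1 cells. H1 is a long-established line of human embryonic stem cells, and MEIS1 encodes a homeodomain transcription factor. Both groups were cultured in mTeSR1-based medium first with BMP4 (50 ng/ml) and activin A (40 ng/ml) over 2 days and then with bFGF (50 ng/ml) and VEGF (40 ng/ml), and were sampled at day 3 of the path towards blood. The labels did not give the deleted part of MEIS1, the number of clones or cultures, or a strand setting of the library kit.

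ANGPT1 and ANGPT2 are secreted proteins that bind the receptor tyrosine kinase TEK. ANGPT1, made mainly by cells around vessels, activates TEK, while ANGPT2, made mainly by endothelial cells, weakens or activates it depending on the setting. TIE1 binds neither ligand strongly by itself and pairs with TEK, and PTPRB removes phosphate from TEK and from the VE-cadherin complex. In mouse embryos TEK is needed for vessel remodelling and heart trabeculae, and it is also carried by blood stem cells.

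The libraries held 5296431 counts (labelled MEIS1-/-) and 5202877 counts (wild type) after rounding, and 14381 genes reached 10 counts in either library and were compared. MEIS1 itself had 68 counts in the library labelled MEIS1-/- and 89 in the wild-type library, 0.759 of the wild-type level with an exact 95% counting interval of 0.543 to 1.05, so its level did not check the genotype label. With a single library per genotype there was no test, and each ratio below compares these libraries only. Intervals cover counting error, not the spread between cultures, and a gene is called higher or lower when its interval excludes 1. In bulk RNA, more cells of a type and more RNA per cell cannot be told apart.

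The receptor genes TEK and TIE1 were both higher in the library labelled MEIS1-/-, so the sequence upstream of their annotated starts is shown for reference. Each line gives 250 bases before the gene's first RefSeq start, on the plus strand of GRCh38.p14, with capitals marking matches to the short motifs named after them.
TIE1, chr1:43300732-43300981: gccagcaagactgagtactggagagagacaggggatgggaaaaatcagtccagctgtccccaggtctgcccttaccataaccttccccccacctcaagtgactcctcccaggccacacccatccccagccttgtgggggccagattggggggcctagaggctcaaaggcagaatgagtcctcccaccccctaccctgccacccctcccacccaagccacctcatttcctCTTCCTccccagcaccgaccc
TEK, chr9:27108975-27109224: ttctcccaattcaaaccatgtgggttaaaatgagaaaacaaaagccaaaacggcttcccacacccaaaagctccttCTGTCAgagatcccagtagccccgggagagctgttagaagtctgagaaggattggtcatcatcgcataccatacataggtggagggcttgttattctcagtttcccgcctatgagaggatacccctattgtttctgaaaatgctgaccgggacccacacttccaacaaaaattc

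The motifs searched, on both strands, were the ETS factor core AGGAAG and the MEIS core TGACAG. The E-box of the TAL1 type was searched as CAGATG, and the motif of GATA2 and its relatives as AGATAA. The TIE1 stretch held the ETS core on the opposite strand, as CTTCCT, starting 21 bases before the gene start, and the E-box lay at base 38 after the start, outside the printed stretch. The TEK stretch held the MEIS core on the opposite strand, as CTGTCA, starting 174 bases before the first start. A second TEK window, before another annotated start, held AGATAA 177 bases before that start. No 2 of these matches overlapped. Of 35116 RefSeq windows of the same kind, each with 250 bases before and 50 after a start, 33.6% held the ETS core, 10.3% the GATA motif, 14.7% the E-box and 15.8% the MEIS core. These shares are per window, and TEK was searched in 2 windows and TIE1 in 1. No other match to these motifs was found in those windows. The matches are of letters only, and binding was not measured. TIE1 lies on chromosome 1, TEK on chromosome 9, PTPRB on chromosome 12 and both ligand genes on chromosome 8. The upstream stretches had a GC content of 61.6% for TIE1 and 46.4% for TEK.

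ANGPT2, TEK, TIE1 and PTPRB, 4 of the 5 genes, were higher in the library labelled MEIS1-/-, 0 were lower, and the interval of ANGPT1 included 1. Over all compared genes 15.4% had an interval above 1 and 14.7% an interval below it, 30.1% in either direction. The counts of genes called in each list below stand beside these same shares. An increase of at least 2-fold was seen for TIE1 and PTPRB, 2 of 5, beside 2.90% of all compared genes. The median log2 ratio of the 5 genes was 0.75, and that of all compared genes was 0.0032.

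**Figure D1:**
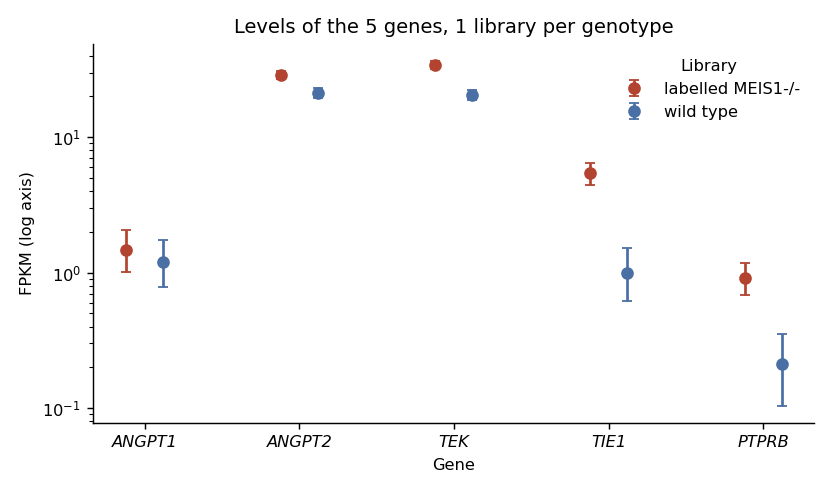
Deposited FPKM (log axis) of each gene in the library labelled MEIS1-/- (red, left of each pair) and the wild-type library (blue, right), with bars for the exact 95% Poisson interval of the count. TIE1 and PTPRB show separate intervals far apart, ANGPT2 and TEK separate intervals close together, and the ANGPT1 intervals overlap.

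The ligand genes differed far more from each other than between libraries. ANGPT1, the activating ligand, had 34 counts and 1.47 FPKM in the library labelled MEIS1-/-, against 27 counts and 1.19 FPKM in wild type. FPKM is the authors' value per length and per depth. The ANGPT1 level was 1.24-fold that of wild type with an interval of 0.730 to 2.15 and a difference was not detectable at this depth. ANGPT2, the context-dependent ligand, had 813 counts and 28.99 FPKM in the library labelled MEIS1-/-, against 587 counts and 21.3 FPKM in wild type. It was 1.37-fold higher (1.23 to 1.53), a log2 ratio of 0.45 (0.30 to 0.61). Its deposited counts were 813.37 in the library labelled MEIS1-/- and 586.95 in wild type, so a part of its reads was shared with other transcripts. In the annotation ANGPT2 overlaps MCPH1, a gene of chromosome condensation, which had 233 counts in the library labelled MEIS1-/- and 216 in wild type.

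ANGPT2 stood far above ANGPT1 in both libraries. Per length, its FPKM was 19.7 times that of ANGPT1 in the library labelled MEIS1-/- (14.0 to 28.7) and 17.9 times in wild type (12.2 to 27.4). The ratio of ANGPT2 to ANGPT1 counts differed by an odds ratio of 1.10 between the libraries (exact interval 0.631 to 1.90), an interval that holds both a loss and a gain. The balance of the ligands was thus measured only within these bounds, which the ANGPT1 counts set.

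TEK, the receptor that both ligands bind, had the most counts of the 5 genes in the library labelled MEIS1-/-. It had 875 counts and 34.09 FPKM there, against 515 counts and 20.43 FPKM in wild type, and both counts were whole. TEK was 1.68-fold higher (1.51 to 1.88), a log2 ratio of 0.75 (0.59 to 0.91), and its ratio lay above 94.1% of those of all compared genes. TIE1, the partner receptor, had 115 counts and 5.4 FPKM in the library labelled MEIS1-/-, against 21 counts and 1 FPKM in wild type. TIE1 was 5.22-fold higher (3.38 to 9.09), and the 21 wild-type counts set the width of that interval. In depth-scaled CPM, which is the count scaled to library size, TEK was 67.2 higher and TIE1 17.8 higher, so the gene with the larger fold added fewer reads.

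The receptors did not differ by the same factor. For each 100 counts of TEK there were 13.1 counts of TIE1 in the library labelled MEIS1-/- and 4.08 in wild type, an odds ratio of 3.22 (1.98 to 5.47). Per length, TEK stayed above TIE1 in both, at 6.31 times its FPKM in the library labelled MEIS1-/- (5.19 to 7.74) and 20.4 times in wild type (13.2 to 33.3). ANGPT2 and TEK also changed by unequal factors. The library labelled MEIS1-/- had 92.9 ANGPT2 counts per 100 TEK counts and wild type had 114, an odds ratio of 0.815 (0.698 to 0.952). This pairing, and those of PTPRB with the receptors below, were chosen after the values were seen.

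PTPRB, the phosphatase that acts on TEK, had the lowest level per length of the 5 genes in both libraries. It had 55 counts and 0.91 FPKM in the library labelled MEIS1-/-, against 12 counts and 0.21 FPKM in wild type, over the longest transcripts of the 5 genes in the deposited tables. PTPRB was 4.26-fold higher (2.40 to 9.31), a log2 ratio of 2.09 (1.26 to 3.22). The deposited counts were 55.16 in the library labelled MEIS1-/- and 12.48 in wild type, so a part of the reads was shared. Relative to TEK it was 2.70-fold higher by odds ratio (1.41 to 5.59), and relative to TIE1 the odds ratio was 0.837 (0.363 to 2.01), so TIE1 and PTPRB were not separated by their counts. On the log2 scale of FPKM plus 1, which understates genes at such low levels, the difference of PTPRB was 0.66 and that of TIE1 1.68.

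**Figure D2:**
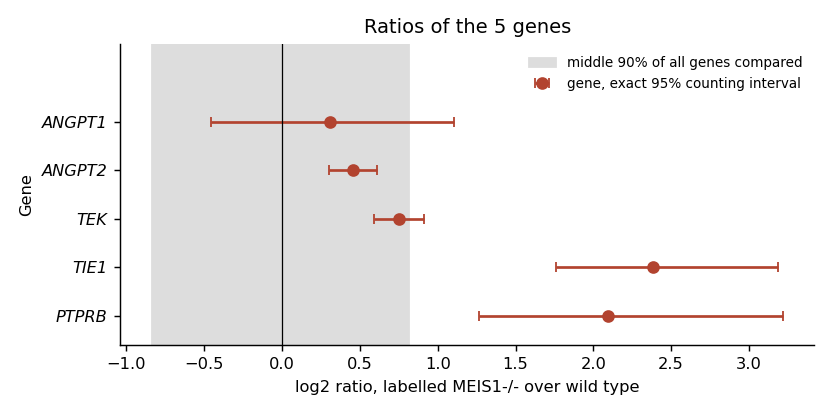
Log2 ratio of each gene, library labelled MEIS1-/- over wild type, with exact 95% counting intervals as bars. The grey band holds the middle 90% of the 14381 compared genes, and TIE1 and PTPRB lie wholly to its right while ANGPT1, ANGPT2 and TEK have their ratios inside it.

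The order of the estimated levels per length differed between the libraries, though the pairs that changed places were not separated in wild type. In the library labelled MEIS1-/- the order ran TEK, ANGPT2, TIE1, ANGPT1 and PTPRB, and each neighbour was separated beyond counting error. The closest were TEK over ANGPT2 at 1.18 times (1.07 to 1.30) and ANGPT1 over PTPRB at 1.62 times (1.02 to 2.53). In wild type the order was ANGPT2, TEK, ANGPT1, TIE1 and PTPRB. There ANGPT2 over TEK, at 1.04 times (0.925 to 1.18), and ANGPT1 over TIE1, at 1.19 times (0.648 to 2.21), were not separated by their counts. TIE1 was 3.67 times ANGPT1 per length in the library labelled MEIS1-/- (2.49 to 5.56).

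Among the 58 receptor tyrosine kinase genes of the human genome, TEK was one of the more abundant in these cells and TIE1 was not. By FPKM, TEK ranked 7 in the library labelled MEIS1-/- and 11 in wild type, and TIE1 ranked 27 and 41 in the same order of libraries. TEK had next to it RYK (38.63 FPKM) and the ephrin receptor gene EPHB4 (33.32 FPKM) in the library labelled MEIS1-/-, and AXL (22.16 FPKM) and ERBB2 (18.31 FPKM) in wild type. Of 45 kinases with enough counts to compare, 11 were higher and 13 lower, and for 21 the interval included 1, with a median log2 ratio of -0.14.

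TIE1 had the largest log2 ratio of these 45 kinases and TEK the sixth. The kinases between them were EPHA7, an ephrin receptor gene with 492 counts in the library labelled MEIS1-/- and 195 in wild type (2.49-fold, 2.11 to 2.96), the neurotrophin receptor gene NTRK3 (1.93-fold, 1.40 to 2.73), and the VEGF receptor genes FLT4 (1.83-fold, 1.19 to 2.95) and FLT1 (1.71-fold, 1.65 to 1.78). At the other end STYK1 had the smallest ratio, with 7 counts in the library labelled MEIS1-/- and 22 in wild type (2.90-fold lower, 1.31 to 8.80). Of kinases with at least 50 counts in either library, ROR2, a WNT5A receptor gene, was lowest. It had 88 counts in the library labelled MEIS1-/- and 199 in wild type and was 2.27-fold lower (1.77 to 2.97). TEK, FLT1 and FLT4 had overlapping intervals, and that of TIE1 lay above all of theirs.

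**Figure D3:**
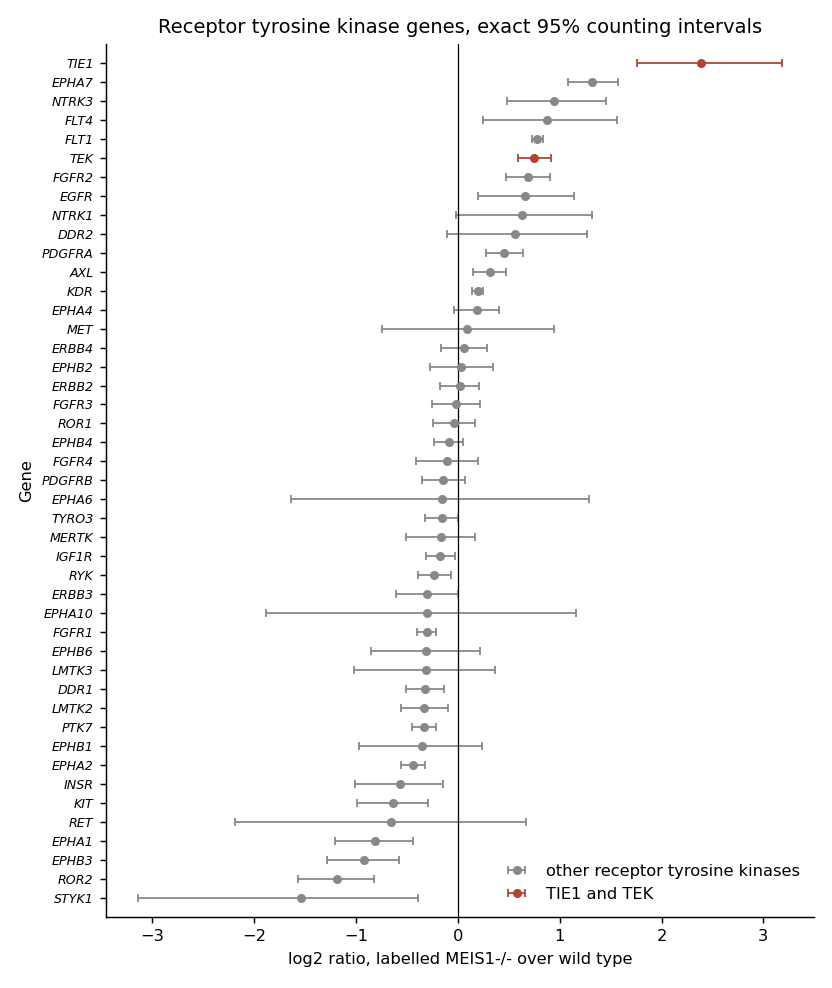
Log2 ratio, library labelled MEIS1-/- over wild type, for the 45 receptor tyrosine kinase genes that reached 10 counts in either library, with exact 95% counting intervals. TIE1 tops the order and TEK (both red) is sixth.

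The relative of PTPRB with the most counts went the other way. In the R3 class of receptor phosphatases PTPRJ, a phosphatase gene of endothelial and blood cells, had 173 counts in the library labelled MEIS1-/- and 247 in wild type and was 1.44-fold lower (1.18 to 1.76). PTPRO had 3 counts in the library labelled MEIS1-/- and 0 in wild type, PTPRH had 1 and 0 in the same order of libraries, and PTPRQ was listed in neither, so only PTPRB and PTPRJ of these 5 genes could be compared.

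Other ligands and modulators of TIE signalling went in both directions. Of 16 genes, 9 could be compared: 3 were higher and 2 lower, and for 4 the interval included 1, with a median log2 ratio of -0.015. ANGPT4, the remaining angiopoietin gene, had 1 count in each library. SVEP1, whose large matrix protein has been described as a TIE1 ligand, had 502 counts in the library labelled MEIS1-/- and 389 in wild type (1.28-fold higher, 1.12 to 1.46). The integrin genes, whose products can bind angiopoietins, were split. ITGB1 (1.49-fold, 1.45 to 1.53) and ITGAV (1.27-fold, 1.22 to 1.32) were higher, and ITGA5 was 1.40-fold lower (1.31 to 1.49). MMP14, the gene of a protease that can cut TEK from the cell surface, was 1.23-fold lower (1.18 to 1.29), while ADAM17, the gene of a protease that can shed TIE1, was 1.03-fold its wild-type level (0.892 to 1.18).

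The adaptors and effectors that act after TEK showed no shift as a list. Of 25 genes 24 were compared, 3 were higher and 5 lower, and for 16 the interval included 1, with a median log2 ratio of -0.022. Differences of at least 2-fold were seen for 0 of them. PAK1, a kinase gene of cell migration, had 266 counts in the library labelled MEIS1-/- and 386 in wild type (1.46-fold lower, 1.25 to 1.72). PIK3R2, a regulatory subunit gene of PI3-kinase, was 1.38-fold lower (1.20 to 1.60), and TNIP2, whose product binds TEK and acts on NF-kappa-B, was 1.34-fold higher (1.03 to 1.75). GRB7, an adaptor gene, had 67 counts in the library labelled MEIS1-/- and 88 in wild type, with an interval that included 1. FOXO1, a transcription factor that AKT inactivates and that drives ANGPT2 in endothelial cells, had 236 counts in the library labelled MEIS1-/- and 224 in wild type, a ratio of 1.04 (0.865 to 1.26). DOK2, an adaptor for TEK, was listed in neither library.

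Of 10 transcription factors described at control regions of TEK or TIE1, 7 were higher and 0 lower, beside 15.4% and 14.7% of all compared genes. For 3 the interval included 1, and the median log2 ratio was 0.66. GATA2 was 2.65-fold higher (2.30 to 3.08). EPAS1, the hypoxia-inducible factor gene that can activate TEK, had 291 counts in the library labelled MEIS1-/- and 135 in wild type (2.12-fold, 1.73 to 2.64). The ETS factor genes ERG (2.06-fold, 1.61 to 2.69) and FLI1 (2.04-fold, 1.75 to 2.40) were higher. ERG is also counted among the endothelial markers below, so these lists are not separate observations. The flow-induced factor gene KLF2 had 20 counts in the library labelled MEIS1-/- and 34 in wild type, with an interval that included 1.

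Endothelial transcripts as a group were higher in the library labelled MEIS1-/-, and whether this plays a part in the differences of the 5 genes was not tested. Of 20 endothelial marker genes other than the 5, 16 were compared, of which 12 were higher and 2 (SOX17, also an endoderm gene, and VWF) lower, with a median log2 ratio of 0.91. The summed counts were 15782 in the library labelled MEIS1-/- and 10540 in wild type, 1.48-fold higher (1.45 to 1.52), and the VEGF receptor genes KDR and FLT1 made up 80.5% of the sum labelled MEIS1-/- and 83.8% of the wild-type sum. CLDN5 was listed in neither library, and CLEC14A and ROBO4 had 0 counts in wild type. PLVAP (6.99-fold, 5.41 to 9.43), PECAM1 (5.35-fold, 3.90 to 7.81) and CDH5 (3.87-fold, 3.14 to 4.89) had the largest ratios of the list from 50 counts upward, with intervals that overlapped those of TIE1 and PTPRB.

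Set against the summed endothelial markers, TIE1 and PTPRB were higher in the library labelled MEIS1-/-. Within counting error their factors were not separated from those of CDH5 and PECAM1, which are among the markers with the largest ratios. TEK, ANGPT2 and ANGPT1 differed by smaller factors. Per count of all endothelial markers, the odds ratio of the library labelled MEIS1-/- over wild type was 3.66 for TIE1 (2.28 to 6.14) and 3.06 for PTPRB (1.62 to 6.28). It was 1.13 for TEK (1.01 to 1.27), 0.925 for ANGPT2 (0.828 to 1.03) and 0.841 for ANGPT1 (0.492 to 1.45). The junction genes CDH5 and PECAM1 alone had 636 counts in the library labelled MEIS1-/- and 145 in wild type, 4.34-fold higher (3.62 to 5.24). Per count of this pair, the odds ratio was 1.25 for TIE1 (0.748 to 2.17) and 1.04 for PTPRB (0.536 to 2.20). A gene with a smaller factor than the pair lies below 1 by this measure. By that measure TEK was lower, at 0.387 (0.312 to 0.480), as were ANGPT2 at 0.316 (0.254 to 0.391) and ANGPT1 at 0.287 (0.163 to 0.513).

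The direction of TEK relative to endothelial transcripts therefore depended on which of them it was set against. Without KDR and FLT1, a choice made after the values were seen, the odds ratio of TEK was 0.942 (0.830 to 1.07), that of ANGPT2 0.767 (0.678 to 0.869) and that of TIE1 3.03 (1.89 to 5.11). PECAM1, KDR and FLT1, among other markers, had estimated counts that were not whole, which adds an uncertainty the intervals do not hold.

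**Figure D4:**
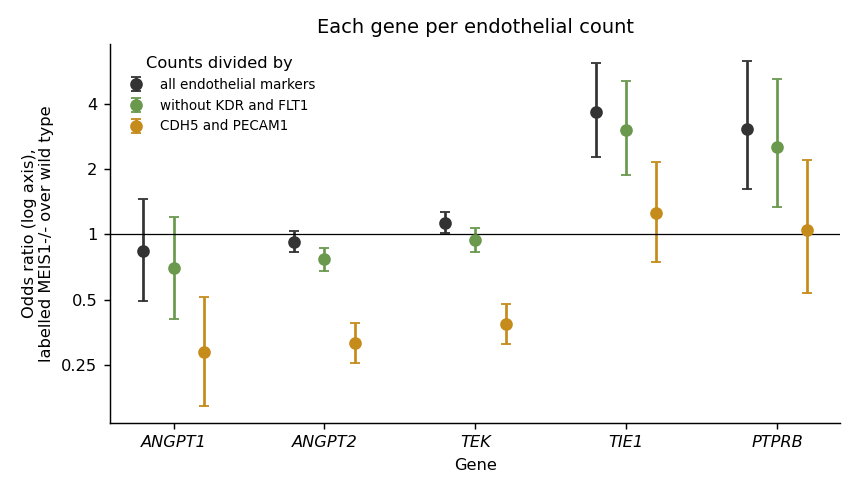
Odds ratio (log axis), library labelled MEIS1-/- over wild type, of each gene's counts to the summed counts of the endothelial markers (black), of those markers without KDR and FLT1 (green) and of CDH5 and PECAM1 alone (ochre), with exact 95% intervals. TIE1 and PTPRB lie above 1 with the first choices and include 1 with the third, while TEK, ANGPT2 and ANGPT1 lie below 1 with the third.

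Markers of other cells that can carry these genes differed by cell type, with mural markers going both ways and the called cardiac and blood markers all higher. Mural cells are a usual source of ANGPT1, and of their 12 marker genes 3 were higher and 4 lower, and for 5 the interval included 1, with a median log2 ratio of 0.012. CSPG4 (NG2) was 2.39-fold higher (1.78 to 3.31), ACTA2 1.95-fold higher (1.59 to 2.42) and ANPEP 2.18-fold lower (1.73 to 2.78). Cardiac muscle also expresses ANGPT1, and of 8 compared cardiac genes 4 were higher and 0 lower, with a median log2 ratio of 0.51. Among the higher ones were ACTC1 (1.71-fold, 1.66 to 1.76) and NKX2-5 (2.02-fold, 1.44 to 2.93). For 4 the interval included 1, among them MYL7, with 110 counts in the library labelled MEIS1-/- and 120 in wild type. The myosin gene MYH7 was listed in neither library, and MYH6 had 4 counts in the library labelled MEIS1-/- and 6 in wild type. Blood cells can carry TEK, and the defining leukocyte gene PTPRC had 7 counts in the library labelled MEIS1-/- and 6 in wild type, with MPO, PF4, GP9, HBZ, HBG1 and HBG2 listed in neither. The summed counts of 15 blood cell genes were 205 in the library labelled MEIS1-/- and 132 in wild type, and 3 of the 5 compared were higher and 0 lower, with a median log2 ratio of 1.49 that rested on genes of at most 28 counts apart from SPN. GFI1B had 0 counts in wild type. The median is the value of KLF1, and GFI1B stayed above it at the bound that 3 counts allow, so the median was again 1.49.

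Lymphatic endothelium uses the same receptors, and of its 4 compared marker genes 2 were higher and 1 lower, with a median log2 ratio of 0.59. PROX1, its defining transcription factor gene, had 57 counts in the library labelled MEIS1-/- and 44 in wild type, with an interval that included 1, and LYVE1 and CCL21 were listed in neither library. PDPN had 568 counts in the library labelled MEIS1-/- and 1098 in wild type (1.95-fold lower, 1.76 to 2.17), whereas RELN was 1.79-fold higher (1.46 to 2.21) and FLT4, given above, 1.83-fold higher. Of 9 compared pluripotency genes 7 were lower and 0 higher, among them POU5F1 (1.76-fold lower, 1.59 to 1.95). POU5F1 transcripts remained in both libraries, with 606 counts in the library labelled MEIS1-/- and 1057 in wild type. SOX2, of the same list, had 9 counts in the library labelled MEIS1-/- and 4 in wild type, too few to compare. Of 10 compared endoderm genes 2 were higher and 2 lower, and for 6 the interval included 1. Whether these cell types shaped the levels of the 5 genes was not tested.

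**Figure D5:**
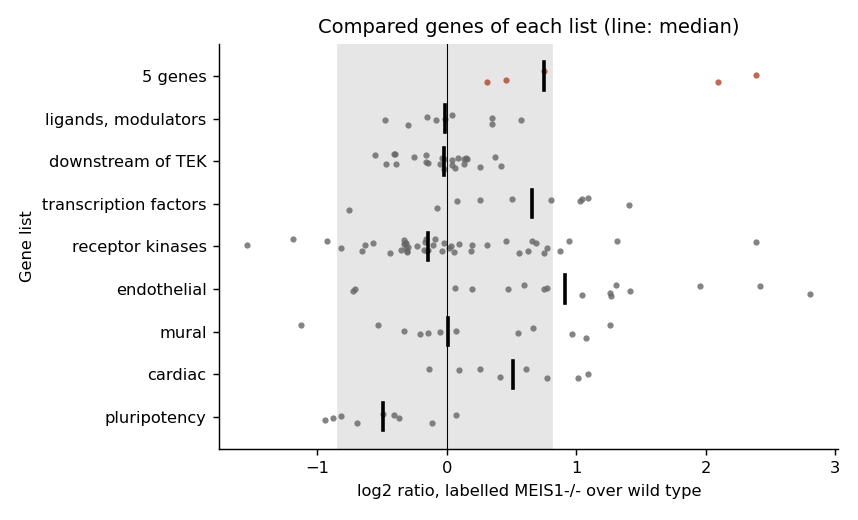
Log2 ratio, library labelled MEIS1-/- over wild type, of each compared gene by list, with a black line at each list's median and a grey band for the middle 90% of all compared genes. The 5 genes (red), the transcription factors and the endothelial markers have medians of 0.75, 0.66 and 0.91, and the lists of ligands and modulators and of genes acting after TEK have medians near 0. Some genes are in several lists, such as ERG among the transcription factors and the endothelial markers.

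The genes most like each member, by distance in log2 CPM over the 2 libraries among 10835 genes that reached 50 counts in either, were CTSB, PAM and SMURF2 for TEK (distances of 0.025 to 0.062) and RPL36AL, ASPH and COTL1 for ANGPT2 (0.033 to 0.065). For TIE1 they were COPG2IT1, ATP2A3 and NPR3 (0.31 to 0.38) and for PTPRB AKAP19, SH3RF3 and CD93 (0.35 to 0.40). No gene in the search matched TIE1 or PTPRB as closely as those did TEK and ANGPT2. With 21 counts of TIE1 and 12 of PTPRB in wild type, distances of this size fall within counting error, so they do not set these genes apart. Genes below 50 counts in both libraries, a limit near the level of PTPRB, were not searched. CD93, an endothelial surface receptor gene, had 59 counts in the library labelled MEIS1-/- and 16 in wild type. ANGPT1 had too few counts for this search. With 2 libraries such likeness holds no more than a level and a ratio.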

How the data were processed

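RNA sequencing data of 2 libraries were used, 1 per genotype. The authors deposited expected counts, which are estimated counts per gene without scaling, and FPKM values, scaled for gene length and depth, per the file headers. The submitters' processing notes name BWA, Bowtie, RSEM and hg19, and the steps behind the tables are not given in the sources used here. Where 1 table lacked a gene, its value there was taken as 0. Symbols came from a RefSeq table of GRCh38.p14, which held 18413 of 18518 gene numbers. Promoter sequences came from RefSeq on GRCh38.p14, which held windows for TIE1 and TEK among the members outside chromosome 8, and no coordinates were carried between builds.

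Expected counts were rounded and scaled by TMM effective library sizes (edgeR 4.0.16, R 4.3.3), whose ratio between the libraries was 1.01. Log2 ratios used a pseudocount of 1, and folds are those ratios as linear values. Intervals are exact 95% Clopper-Pearson intervals that condition on the summed counts and use no pseudocount, and odds ratios have exact conditional intervals (scipy 1.17.1). Both cover only counting error and treat counts as independent molecules, which PCR copies are not. A count of 0 allows up to 3 counts. Genes that reached 10 counts in either library were compared. No test between genotypes was possible. Genes named from a list are those with the largest absolute log2 ratios among genes with at least 50 counts (up to 4 for pathway and family lists, up to 3 for marker lists), with members at 0. Other named list genes (MMP14, ADAM17, ANGPT4, FOXO1, KLF2, FLT1, PROX1, PTPRC, SOX17 and VWF among them) were chosen after their values were seen. The members and lists were chosen with earlier results of these data known. A gene of the blood cell list is not reported here and was left out of it. The computation was checked on simulated counts. Alternatives were other scalings (library totals, DESeq2 1.42.0 size factors, upper quartile), pseudocounts, minimum counts, fold thresholds, counts without rounding and FPKM.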

Additional observations from a re-analysis of the deposited data

How the results depend on the processing

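Of 40 alternative values of the 5 genes' log2 ratios, 38 lay inside the counting interval, and the other 2, both from FPKM with a pseudocount of 1, were 1.68 for TIE1 and 0.66 for PTPRB, since the pseudocount weighs more at low levels. The number of genes called higher stayed at 4 under each other scaling and minimum count, and the number at least 2-fold higher within 1.5 times of 2. A minimum of 1 or 50 counts could not change either number, since all 4 genes had over 50 counts in the library labelled MEIS1-/-. The scalings also gave library sizes close to each other. Over all genes, 417 at least 2-fold higher became 161 with a minimum of 50 counts, 827 at 1.5-fold and 111 at 4-fold. Per count of CDH5 and PECAM1 alone, the log2 odds ratios were -1.80 for ANGPT1, -1.66 for ANGPT2, -1.37 for TEK (turned from 0.18), 0.32 for TIE1 and 0.063 for PTPRB. Without KDR and FLT1, chosen after seeing the data, they were -0.38 for ANGPT2 and -0.087 for TEK. For TEK the sign turned here too, but its odds ratio of 0.942 had an interval (0.830 to 1.07) that included 1. The called blood cell markers became 0 with a minimum of 50 counts, where fewer genes were compared, and the other 47 of 48 list counts stayed within 1.5 times. Of 60 alternative list medians 12 moved by over 0.1: with a minimum of 50 counts the mural median was -0.14, the transcription factor median 0.81, the blood median 0.18, the cardiac median 0.61 and the pluripotency median -0.59, with a minimum of 1 count the endothelial median was 1.05, the blood median 0.91, the cardiac median 0.41 and the R3 phosphatase median 1.49, and from FPKM the lymphatic median was 0.37, the blood median 0.85 and the R3 phosphatase median 0.10. FPKM gave no counting interval, so no list counts. No paired analysis was possible because each genotype had 1 library, and none could be left out. Depth limits ANGPT1, with 34 counts in the library labelled MEIS1-/- and 27 in wild type, and the wild-type values of TIE1 (21) and PTPRB (12).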
